A study of Homo sapiens with 9 samples.

Results

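Cell junctions hold the sheets of an epithelium together. A list of 36 genes that encode junction proteins, or that mark and regulate the passage from an epithelial to a mesenchymal state, was followed in DLD1, a cell line from a human colorectal cancer, after depletion of Lamin A/C or Lamin B2. Members were chosen by gene name, and every probe carrying a member's name was taken. Of the 36 names, 35 were found among the 31033 gene names of the array, with 59 probes. ESRP1, which encodes an epithelial splicing regulator, was not found under that name.

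The study asked how depletion of each lamin affects the transcriptome of these cells. RNA was taken from 3 untreated control cultures, from 3 cultures treated with siRNA against Lamin A/C (Lamin A/C Kd) and from 3 treated with siRNA against Lamin B2 (Lamin B2 Kd), both at 100 nM for 48 h, and each was hybridized to a single-color Agilent array. All 9 are from the same cell line, and the 3 samples of a group are independent biological replicates per the study's methods. None of the arrays holds cells given a control siRNA, so transfection and lamin depletion cannot be told apart in a comparison with the controls. Both knockdowns were compared with the same 3 control arrays.

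Adherens junctions join neighboring cells through cadherins, which bind catenins inside the cell. Desmosomes are spot-like junctions built from desmosomal cadherins (desmogleins and desmocollins), plakoglobin, plakophilins and desmoplakin, and they anchor keratin filaments. Tight junctions seal the space between cells through claudins, occludin and JAM proteins, with the ZO proteins and cingulin as scaffolds, and gap junctions are channels made of connexins. In the epithelial-mesenchymal transition, transcription factors of the SNAI, ZEB and TWIST families repress epithelial genes such as CDH1, while vimentin and fibronectin are made.

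Levels are log2 signals minus the median of the array, so 0 is the median spot. Probes differ in how brightly they bind, so levels are compared between arrays for 1 probe and never between genes. A gene was represented by its brightest probe. "Rose" and "fell" refer to a Benjamini-Hochberg adjusted p under 0.05 in limma's test over all probes tested. The study used genes with a change of at least 2-fold and a p under 0.05. This is given beside it as the 2-fold criterion, with the p taken here as unadjusted.

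The labels were checked on the lamins. The LMNA signal on the control arrays was 8.79, 8.79 and 8.91, and upon Lamin A/C Kd it was 4.84, 5.14 and 5.03. This is a fall of LMNA to 7.04% of control (log2 change -3.83 ± 0.22 SE, adjusted p = 0.000225). The LMNB2 signal was 5.44, 5.51 and 5.74 in controls and 3.10, 3.48 and 3.15 upon Lamin B2 Kd, a log2 change of -2.32 ± 0.14 (SE, adjusted p = 0.000523). Every array therefore matched the knockdown in its label.

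Replicate 3 of Lamin B2 Kd stood apart from the other arrays. It was the only array on a second slide, and over probes above background on all arrays its correlation with the others was 0.969 to 0.980, against at least 0.985 for every other pair. It gave the lowest of the 9 signals for 18 of the 29 members tested in either knockdown, and for 46.6% of all genes tested. It gave the highest for 2 of these members and for 17.5% of all genes. The medians and counts over the members, and the members past a threshold upon Lamin B2 Kd, are given with and without it. With a single array on that slide, slide and replicate cannot be told apart.

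Of the 35 members found, 28 were bright enough for a test upon Lamin A/C Kd and 29 upon Lamin B2 Kd. A test required that the spots of a probe stood well above background throughout either group of a comparison. CDH2 (N-cadherin), ZEB1, DSG3, DSC3 and GJA1 were not above background on any of the 9 arrays. ZEB2 was above background on 1 control array, 0 Lamin A/C Kd arrays and 2 Lamin B2 Kd arrays. PKP1 was above it on 2, 2 and 3 arrays. It passed the filter through its Lamin B2 Kd arrays only, so it entered the Lamin B2 Kd comparison and the difference between the knockdowns. Its values there are a description, though it is counted among the 29 members and among those above 0. With detection required on all 9 arrays, which left it out, 8 of 28 members lay above 0 upon Lamin B2 Kd and 20 below. Of the marker genes of colon epithelium, 11 of 12 names were found and 10 or 11 were above background on each array, with the KRT18 probe giving the highest signal. The sum of their signals, in multiples of the array median, mixes probes and is read only between arrays. It was 7190 to 7934 in controls, 7853 to 7976 in Lamin A/C Kd and 6798 to 9218 in Lamin B2 Kd. The same sum over 9 fibroblast markers was 13.0 to 21.5 on the 9 arrays, most of it from the THY1 probe.

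**Figure D1:**
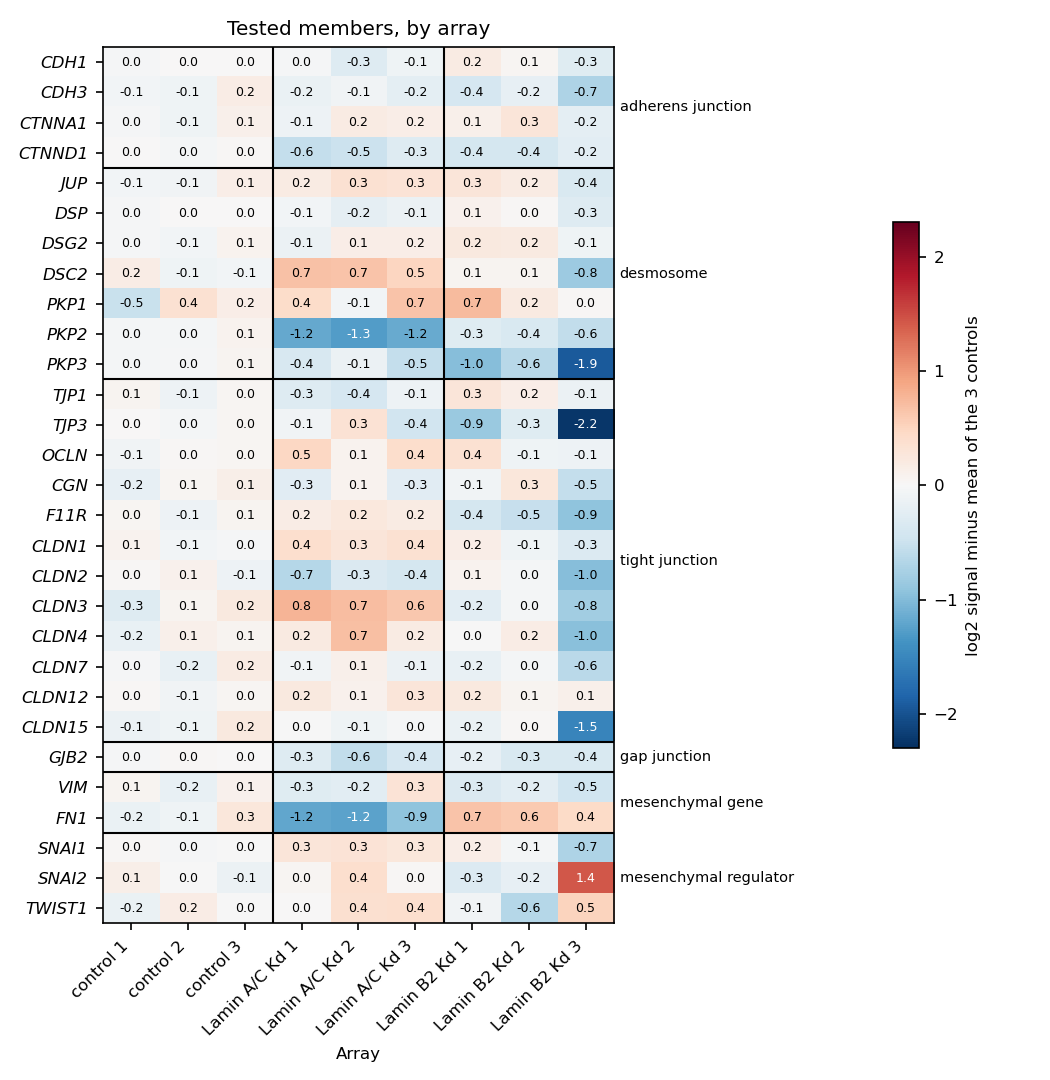
Each row is 1 of the 29 members tested in either knockdown and each column 1 array. Cells give the log2 signal minus the mean of the 3 controls, red for higher and blue for lower. PKP2 and FN1 are blue on all 3 Lamin A/C Kd arrays, and much of the blue in Lamin B2 Kd lies in the column of replicate 3.

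Upon Lamin A/C Kd, 3 of 28 members fell and 0 rose. The members that fell were PKP2, FN1 and CTNND1. Among all 21846 genes tested in that comparison, 5.79% fell and 3.15% rose. By the unadjusted p, 7 of the 28 were under 0.05, and 23.2% of all genes were. Without Lamin B2 Kd replicate 3, which enters this comparison only through the shared estimate of the spread, 9 members passed, with CLDN1, CLDN3, DSC2 and SNAI1 higher and CLDN2 and GJB2 lower besides the same 3. The share of all genes past the adjusted p in either direction was then 20.9%, against 8.94% with that array. The median log2 change of the members was -0.04, the same to 2 decimals as the median of all genes, with 13 members above 0 and 15 below. By the 2-fold criterion 2 members were called, PKP2 and FN1, where 2.21% of all genes were. Upon Lamin B2 Kd, 0 of 29 members rose and 0 fell in limma's test, against 0.461% and 3.92% of 22103 genes, and 8 members were under an unadjusted p of 0.05, where 24.4% of all genes were. Their median change was -0.20 and that of all genes -0.14, with 9 members above 0 and 20 below, where 66.7% of all genes were below. Without Lamin B2 Kd replicate 3 the median of the members was 0.03, with 16 above 0 and 13 below, and that of all genes was -0.06, with 61.5% below. The 2-fold criterion called PKP3 and TJP3, and 2.03% of all genes. Without that array the 2-fold criterion called 0 members, and the adjusted p called 2 as lower, F11R and PKP3. Of all genes, 4.7% then passed the adjusted p in either direction. With all arrays kept, 9 of 28 members lay below all controls throughout Lamin A/C Kd, and 8 of 29 throughout Lamin B2 Kd. Of all genes, 25.2% and 27.3% did so, in that order. Above all controls lay 9 and 2 members, where 15.7% and 5.62% of all genes did. In bulk RNA, fewer cells that make a transcript and less of it per cell cannot be told apart.

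The size of the Lamin B2 Kd changes depended on how arrays were scaled. With a shift by the 75th percentile in place of the median, the median change of all genes was 0.06, and 14 members lay above 0 and 15 below. The adjusted p then called 1 member as higher, FN1, and 1 as lower, F11R. In Lamin A/C Kd the same shift gave 3 members higher (CLDN1, CLDN3 and DSC2) and 2 lower (FN1 and PKP2). Under that shift 15.2% of all genes passed upon Lamin A/C Kd and 4.87% upon Lamin B2 Kd.

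**Figure D2:**
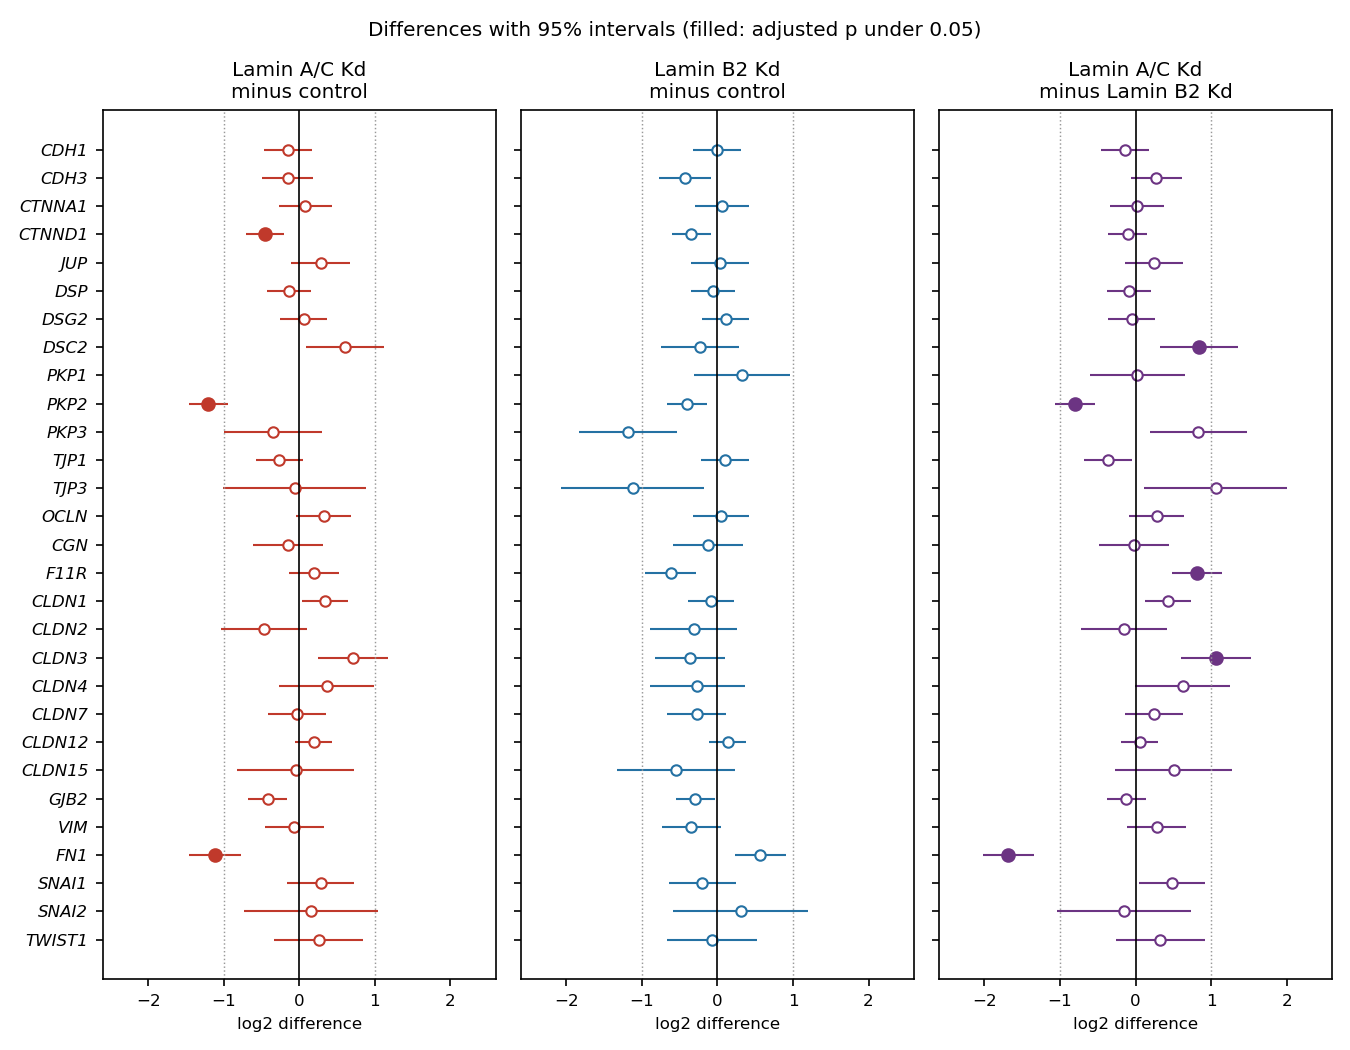
Points are the log2 differences of the tested members for Lamin A/C Kd minus control, Lamin B2 Kd minus control, and Lamin A/C Kd minus Lamin B2 Kd, with 95% intervals as lines. Filled points have an adjusted p under 0.05, and dotted lines mark a 2-fold difference. PKP2, FN1 and CTNND1 are the filled points upon Lamin A/C Kd, and no point is filled upon Lamin B2 Kd.

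Of the adherens junction members, CTNND1 fell upon Lamin A/C Kd and CDH1 showed no change that passed the test. CDH1 encodes E-cadherin, the main cadherin of epithelial cells. Its signal was 8.61, 8.65 and 8.64 in controls, 8.60, 8.34 and 8.53 upon Lamin A/C Kd and 8.83, 8.68 and 8.36 upon Lamin B2 Kd. The Lamin A/C Kd arrays lay below the controls by a mean of 0.14, and the Lamin B2 Kd arrays lay on both sides. The 95% interval of the CDH1 change was -0.46 to 0.17 upon Lamin A/C Kd and -0.33 to 0.31 upon Lamin B2 Kd, which leaves out a 2-fold change in either direction.

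CTNND1 encodes p120-catenin, which binds cadherins and holds them at the cell surface. Its signal was 1.63, 1.59 and 1.66 in controls, 1.07, 1.12 and 1.32 upon Lamin A/C Kd and 1.23, 1.23 and 1.38 upon Lamin B2 Kd. All arrays of both knockdowns lay below all controls. The log2 change was -0.45 ± 0.11 (SE, adjusted p = 0.0392) upon Lamin A/C Kd and -0.35 ± 0.11 (adjusted p = 0.117) upon Lamin B2 Kd. Leaving out any 1 of the controls, replicate 1 or 2 of Lamin A/C Kd, or replicate 2 of Lamin B2 Kd, the CTNND1 adjusted p upon Lamin A/C Kd was 0.0534 to 0.144. The gene has 4 probes, and upon Lamin A/C Kd the other 3 changed by -0.23, -0.48 and 0.03 with adjusted p from 0.0714 to 0.959. Upon Lamin B2 Kd these 3 probes changed by -0.08, -0.18 and 0.45 with adjusted p from 0.234 to 0.776. With the mean of the 4 probes the CTNND1 change was -0.28 upon Lamin A/C Kd (adjusted p = 0.222) and -0.04 upon Lamin B2 Kd (adjusted p = 0.86). CDH3 (P-cadherin) changed by -0.16 and -0.43, and CTNNA1 (alpha-catenin, which links the cadherin complex to actin) by 0.08 and 0.06, in the A/C and B2 knockdowns in that order, and none passed the test.

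Among the desmosome members, PKP2 fell upon Lamin A/C Kd and PKP3 passed the 2-fold criterion upon Lamin B2 Kd. Plakophilins link the desmosomal cadherins to desmoplakin, and PKP2 is the form found in simple epithelia and the heart. The array carries 4 probes of 60 bases for PKP2, and their first 30 bases are shown since the probes did not all give the same change. Sequences run 5′ to 3′ as deposited, and the longest run of bases that any of these probes shared with another PKP2 probe was 9.
PKP2 probe 1: ctgatgataagcatttggagtgcatttatt
PKP2 probe 2: ggttgacatcatccagcgaaatgaatctac
PKP2 probe 3: aaagcatgccttgtttctatctttctctat
PKP2 probe 4: atcttttccacagagaaaggcaactgtgat

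On probe 1, which represents the gene, the PKP2 signal was 6.75, 6.75 and 6.87 in controls, 5.62, 5.51 and 5.64 upon Lamin A/C Kd and 6.51, 6.44 and 6.23 upon Lamin B2 Kd. The Lamin A/C Kd arrays lay below all others, and the Lamin B2 Kd arrays lay between them and the controls. PKP2 fell to 43.4% of control upon Lamin A/C Kd (log2 change -1.20 ± 0.12 SE, adjusted p = 0.000969). Upon Lamin B2 Kd the change was -0.40 ± 0.12 (SE, adjusted p = 0.0891), and the difference between the knockdowns was -0.80 ± 0.12 (SE, adjusted p = 0.00264). Probes 2 and 4 also fell upon Lamin A/C Kd, by 1.13 and 1.08 on the log2 scale. Probe 3 read 4.63, 4.61 and 4.66 in controls and 4.23, 4.22 and 4.26 upon Lamin A/C Kd, a change of -0.40 (adjusted p = 0.235). Its 3 Lamin A/C Kd arrays lay below the controls, but the change was smaller than on the other probes. Upon Lamin B2 Kd probe 3 read 4.44, 4.40 and 3.70, a change of -0.45, and the knockdowns differed on it by 0.06 (adjusted p = 0.865). This small difference depends on Lamin B2 Kd replicate 3, which lay below the Lamin A/C Kd arrays while replicates 1 and 2 lay above them. On probes 2 and 4 the difference between the knockdowns was -0.79 and -0.89, past the adjusted p on both. The fall of PKP2 passed the adjusted p under each of the 21 alternative settings tried, among them the mean of its 4 probes, with a change between -1.26 and -0.95.

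PKP3 encodes the plakophilin found across epithelia. Its signal was 8.97, 9.0 and 9.09 in controls, 8.65, 8.88 and 8.48 upon Lamin A/C Kd and 8.05, 8.39 and 7.08 upon Lamin B2 Kd. All 3 Lamin B2 Kd arrays lay below the controls, with replicate 3 the lowest by about 1 log2 unit. The PKP3 change upon Lamin B2 Kd was -1.18 ± 0.29 (SE), with an unadjusted p of 0.00257 and an adjusted p of 0.0551. Without replicate 3 the PKP3 change was -0.80, with an adjusted p of 0.0309 and no longer 2-fold, and without replicate 2 it was -1.45 (adjusted p = 0.0238).

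DSC2 (desmocollin-2, a desmosomal cadherin) read -0.60, -0.86 and -0.83 in controls, -0.09, -0.10 and -0.28 upon Lamin A/C Kd and -0.70, -0.69 and -1.59 upon Lamin B2 Kd. The Lamin A/C Kd arrays lay above all others, and Lamin B2 Kd overlapped the controls. The DSC2 change upon Lamin A/C Kd was 0.61 ± 0.23 (SE, adjusted p = 0.14). JUP (plakoglobin), DSP (desmoplakin) and DSG2 (desmoglein-2) changed by -0.14 to 0.28 upon Lamin A/C Kd and by -0.05 to 0.11 upon Lamin B2 Kd, none past the test. With replicate 3 left out, the latter were 0.23 for JUP, 0.07 for DSP and 0.21 for DSG2.

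Of the 12 tight junction members, all were tested and 0 passed the adjusted p in either knockdown, with 2 under an unadjusted p of 0.05 in each, where 23.2% and 24.4% of all genes were. Upon Lamin A/C Kd their median change was 0.08, with 6 above 0 and 6 below. Upon Lamin B2 Kd it was -0.27, with 3 above 0 and 9 below, against a median of -0.14 over all genes and 66.7% of them below 0. Without Lamin B2 Kd replicate 3 the tight junction median was 0.02, with 7 above 0 and 5 below.

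TJP3 encodes ZO-3, a scaffold beneath the tight junction. Its signal was 1.54, 1.50 and 1.58 in controls, 1.46, 1.87 and 1.09 upon Lamin A/C Kd and 0.68, 1.25 and -0.69 upon Lamin B2 Kd. The Lamin B2 Kd arrays lay below the controls but were spread over almost 2 log2 units. The TJP3 change upon Lamin B2 Kd was -1.12 ± 0.42 (SE, unadjusted p = 0.0254, adjusted p = 0.157). Without Lamin B2 Kd replicate 3 the TJP3 change was -0.57, with an adjusted p of 0.23, and without replicate 2 it was -1.54 (adjusted p = 0.0478). Without control replicate 1 or 3 its unadjusted p was 0.0532 and 0.0585, outside the 2-fold criterion. TJP1 (ZO-1) changed by -0.27 and 0.10, OCLN (occludin) by 0.32 and 0.04, and CGN (cingulin) by -0.15 and -0.12, in the A/C and B2 knockdowns in that order. With replicate 3 of the B2 knockdown left out, the changes there were 0.21 for TJP1, 0.13 for OCLN and 0.09 for CGN. A second TJP1 probe changed by -0.41 (adjusted p = 0.0514) and -0.20.

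F11R encodes JAM-A, an adhesion molecule of the tight junction, and CLDN3 encodes a sealing claudin. Each has 2 probes, shown by their first 30 bases since they differed in the size of the change.
F11R probe 1: tttacttctctagcttacaatggacctttt
F11R probe 2: ttctattaaggatccaaaaagaaaaacaaa
CLDN3 probe 1: cccatcgggccgctgcccccatgctcgcgc
CLDN3 probe 2: aagatcaccatcgtggcaggcgtgctgttc

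On F11R probe 1 the signal was 7.57, 7.42 and 7.60 in controls, 7.70, 7.77 and 7.72 upon Lamin A/C Kd and 7.13, 7.0 and 6.60 upon Lamin B2 Kd. The 3 groups did not overlap, with Lamin A/C Kd above and Lamin B2 Kd below the controls. The F11R changes were 0.20 ± 0.15 (SE, adjusted p = 0.479) and -0.62 ± 0.15 (SE, adjusted p = 0.0512). On F11R probe 2 the changes were 0.06 and -0.15, and neither passed the test. Without Lamin B2 Kd replicate 3 the F11R change upon Lamin B2 Kd was -0.47 (adjusted p = 0.0429), and without replicate 1 it was -0.73 (adjusted p = 0.0479).

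On CLDN3 probe 1 the signal was 3.75, 4.10 and 4.26 in controls, 4.81, 4.75 and 4.66 upon Lamin A/C Kd and 3.79, 3.99 and 3.24 upon Lamin B2 Kd. The Lamin A/C Kd arrays lay above all others. The CLDN3 change was 0.71 ± 0.20 (SE, adjusted p = 0.0641) upon Lamin A/C Kd and -0.36 ± 0.20 (SE, adjusted p = 0.307) upon Lamin B2 Kd, or -0.14 without replicate 3. On CLDN3 probe 2 the changes were 0.27 (adjusted p = 0.553) and 0.07 (adjusted p = 0.852). Of its 60 bases, 78.3% are G or C in CLDN3 probe 1 and 65.0% in probe 2. The other 6 claudins (CLDN1, CLDN2, CLDN4, CLDN7, CLDN12 and CLDN15) changed by -0.47 to 0.36 upon Lamin A/C Kd and by -0.55 to 0.14 upon Lamin B2 Kd. With replicate 3 left out the latter range was -0.11 (CLDN7) to 0.15 (CLDN12), and CLDN15, at -0.55 with that array, changed by -0.07. A second CLDN1 probe changed by 0.21 and 0.35, against 0.34 and -0.08 on the brighter one, and neither passed the test.

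GJB2 encodes connexin 26, a gap junction channel. Its signal was 6.02 to 6.08 in controls, 5.49 to 5.75 upon Lamin A/C Kd and 5.70 to 5.87 upon Lamin B2 Kd. Both knockdowns lay below the controls, by 0.42 (adjusted p = 0.0529) and 0.30 (adjusted p = 0.166) on the log2 scale.

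**Figure D3:**
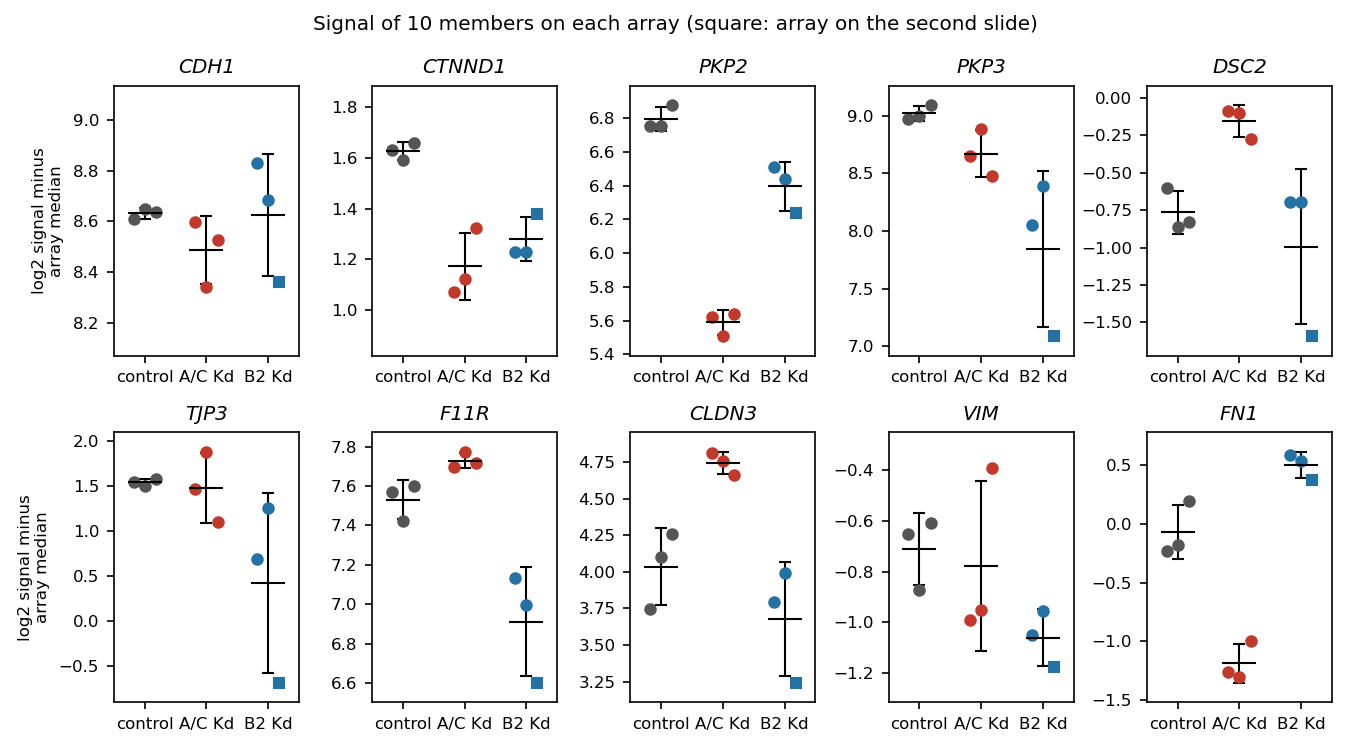
Each panel gives the log2 signal minus the array median of 1 member on the 9 arrays, as points, with the group mean and SD (n = 3) as black bars. Each panel has its own vertical axis. FN1 lies lowest in Lamin A/C Kd and highest in Lamin B2 Kd, and the square, Lamin B2 Kd replicate 3, is the lowest Lamin B2 Kd point for PKP3 and TJP3.

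Of the mesenchymal genes, FN1 fell upon Lamin A/C Kd. FN1 encodes fibronectin, a matrix protein bound by integrins and a usual marker of the mesenchymal state. The array carries 3 probes for it, and only the first was above background on all arrays.
FN1 probe 1: tacaaccagtattctcagagataccatcag
FN1 probe 2: cctgttggcactgatgaagaacccttacag
FN1 probe 3: aatactctttctgcacagaccacactgttt

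On FN1 probe 1 the signal was -0.23, -0.18 and 0.19 in controls, -1.26, -1.31 and -0.99 upon Lamin A/C Kd and 0.59, 0.53 and 0.37 upon Lamin B2 Kd. The 3 groups did not overlap. FN1 fell to 46.1% of control upon Lamin A/C Kd (log2 change -1.12 ± 0.15 SE, adjusted p = 0.00415), and without control replicate 3 its change was -0.98. Upon Lamin B2 Kd it was 0.57 ± 0.15 (SE) above control, with an adjusted p of 0.069. The FN1 signal is near the array median, and with normexp background correction its change upon Lamin A/C Kd was -0.45, with the adjusted p still under the threshold. With the mean of its 3 probes the FN1 change was -0.55 and did not pass (adjusted p = 0.0705). FN1 probe 2 was above background on 1 control array, 0 Lamin A/C Kd arrays and 3 Lamin B2 Kd arrays, and FN1 probe 3 on 0 of 9. With probe 2 held at the lowest signal above background on each Lamin A/C Kd array where its own was lower, FN1 was at least 1.31-fold lower upon Lamin A/C Kd than upon Lamin B2 Kd on that probe. Probe 2 passed the filter through its Lamin B2 Kd arrays only, so no p is given for it.

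VIM encodes vimentin, the intermediate filament of mesenchymal cells. Its signal was -0.65, -0.87 and -0.61 in controls, -0.99, -0.95 and -0.39 upon Lamin A/C Kd and -1.05, -0.95 and -1.18 upon Lamin B2 Kd. Lamin A/C Kd overlapped the controls and Lamin B2 Kd lay below them. The VIM changes were -0.07 (95% interval -0.46 to 0.32) and -0.35 (95% interval -0.74 to 0.04), with adjusted p of 0.88 and 0.256. A second VIM probe changed by 0.30 and -0.22, and neither passed.

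Of the 5 transcription factors that drive the transition, SNAI1, SNAI2 and TWIST1 were tested and 0 passed the adjusted p in either knockdown. SNAI1 (Snail) changed by 0.28 upon Lamin A/C Kd and by -0.20 upon Lamin B2 Kd, and TWIST1 by 0.26 and -0.07. With its replicate 3 left out, the Lamin B2 Kd changes were 0.05 for SNAI1 and -0.36 for TWIST1. SNAI2 (Slug) changed by 0.15 and 0.31. The SNAI2 signal upon Lamin B2 Kd was -1.65, -1.53 and 0.10, so its higher mean came from replicate 3 alone.

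The difference between the knockdowns was tested directly, and 5 of 29 members passed the adjusted p, where 15.7% of 21829 genes did. CLDN3, DSC2 and F11R were higher in Lamin A/C Kd than in Lamin B2 Kd, by 1.07 ± 0.20 (SE, adjusted p = 0.00899), 0.84 ± 0.23 (SE, adjusted p = 0.0381) and 0.82 ± 0.15 (SE, adjusted p = 0.00697). FN1 and PKP2 were lower in Lamin A/C Kd, FN1 by 1.69 on the log2 scale (adjusted p = 0.000389) and PKP2 as given above. The median difference was 0.25 over the members and 0.05 over all genes, and without Lamin B2 Kd replicate 3 it was 0.05 and 0.01. Without Lamin B2 Kd replicate 3 the differences were -1.75 for FN1, -0.88 for PKP2, 0.85 for CLDN3, 0.66 for F11R and 0.54 for DSC2, each still past the adjusted p. With normexp background correction the differences were -0.79 for FN1 and 0.34 for DSC2, also past it. The DSC2 difference did not pass without any 1 of the controls or of the Lamin A/C Kd arrays (adjusted p from 0.0563 to 0.113). On the second probes of F11R and CLDN3 the differences were 0.22 and 0.19, with adjusted p of 0.251 and 0.615. On PKP2 probe 3 the difference was 0.06 (adjusted p = 0.865), with only replicate 3 of Lamin B2 Kd below the Lamin A/C Kd arrays. PKP3 and TJP3, the members past the 2-fold criterion upon Lamin B2 Kd, differed between the knockdowns by 0.83 (adjusted p = 0.0836) and 1.06 (adjusted p = 0.125). With the slide as a block, which sets Lamin B2 Kd replicate 3 apart, these differences were 0.45 and 0.51.

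**Figure D4:**
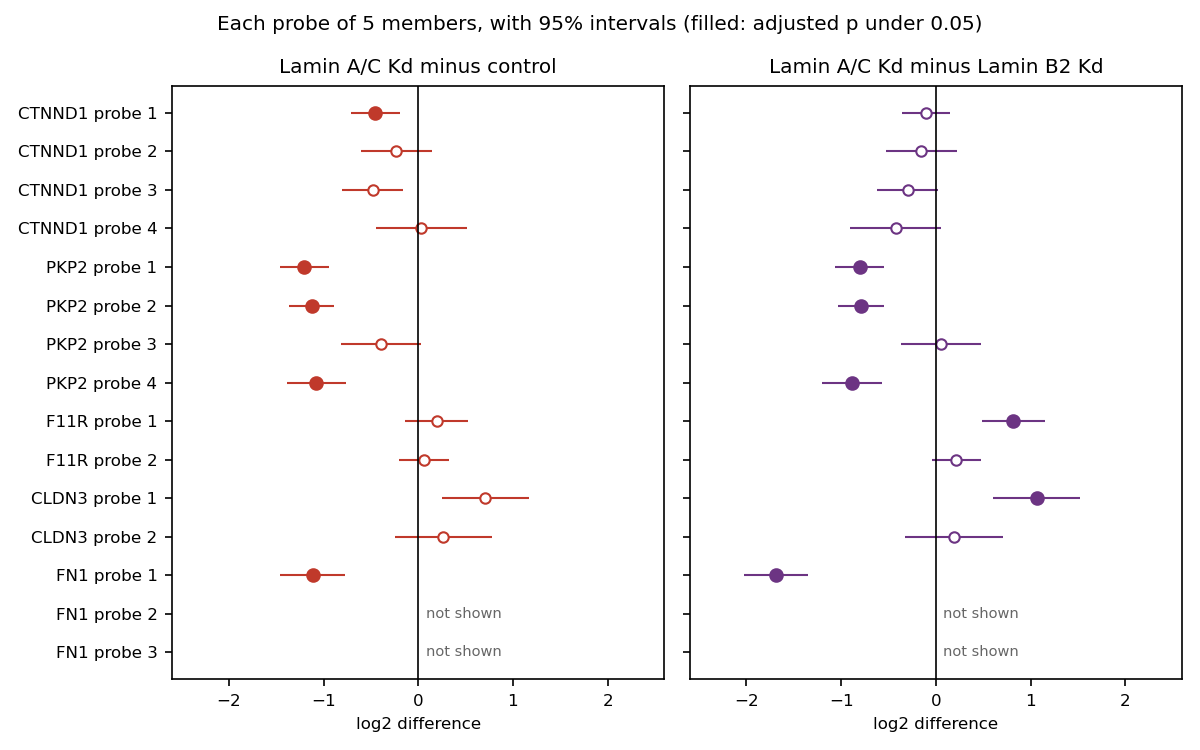
Points are the log2 differences of the probes of the 5 members with several probes of which at least 1 passed the adjusted p, with 95% intervals, for Lamin A/C Kd minus control and for Lamin A/C Kd minus Lamin B2 Kd. Filled points have an adjusted p under 0.05. PKP2 probes 1, 2 and 4 lie below -1 upon Lamin A/C Kd while probe 3 lies at -0.40, and only the first probes of F11R and CLDN3 are filled in the difference. FN1 probes 2 and 3 are not shown, since neither was above background on any Lamin A/C Kd array.

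Other genes of the same junctions and pathways were taken from wider lists. Of the further adherens junction genes, CTNNAL1 (an alpha-catenin-like protein) fell by 0.76 on the log2 scale upon Lamin A/C Kd (adjusted p = 0.00954). Of 4 further desmosome genes tested, PKP4 and PPL fell upon Lamin A/C Kd, by 0.64 and 0.86, and PPL also fell upon Lamin B2 Kd, by 0.97, where 5.79% and 3.92% of all genes fell. PPL is periplakin, which links keratin filaments to junctions, and its signal was 3.68, 3.83 and 3.97 in controls, 2.83, 3.10 and 2.96 upon Lamin A/C Kd and 2.86, 3.29 and 2.40 upon Lamin B2 Kd. Both knockdowns lay below all controls for PPL. Leaving out 1 array could lose these calls while the changes stayed of similar size. CTNNAL1 did not pass without control replicate 1 or 3 (adjusted p 0.0514 and 0.0532, log2 change -0.73 in both), and PKP4 without any 1 of the controls or replicate 1 or 2 of Lamin A/C Kd (0.0653 to 0.101, changes of -0.68 to -0.56). PPL did not pass in either knockdown without any 1 of the controls, of the Lamin A/C Kd arrays or replicate 1 of Lamin B2 Kd (adjusted p from 0.0504 to 0.173).

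Of 15 further tight junction genes tested, 0 passed upon Lamin B2 Kd, and 0 upon Lamin A/C Kd with CGNL1 left aside. Of all genes, 4.38% and 8.94% passed, in that order. CGNL1 encodes paracingulin, and it read -2.17, -2.15 and -1.32 in controls, -0.28, -0.22 and -0.17 upon Lamin A/C Kd and -2.21, -2.86 and -2.54 upon Lamin B2 Kd. It was above background on 1 control array, 3 Lamin A/C Kd arrays and 0 Lamin B2 Kd arrays. It passed the filter through its Lamin A/C Kd arrays only, so its signals are a description, with no test and no fold against the controls. CGNL1 was at least 3.58-fold higher upon Lamin A/C Kd than upon Lamin B2 Kd. Of 18 polarity complex genes tested, 0 passed in either knockdown, with 2 and 3 under an unadjusted p of 0.05, where 23.2% and 24.4% of all genes were.

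Of 13 further regulators of the epithelial state tested, 1 fell upon Lamin A/C Kd and 1 rose upon Lamin B2 Kd. Of all genes, 5.79% and 0.461% did so. The gene listed as RBM35B, the older name of ESRP2, fell by 0.77 upon Lamin A/C Kd (adjusted p = 0.00917). GRHL3, a grainyhead transcription factor of epithelia, rose by 0.58 upon Lamin B2 Kd (adjusted p = 0.0492). ESRP1 is present under its older name RBM35A, and its changes were -0.21 (adjusted p = 0.53) and -0.23 (adjusted p = 0.41) in the A/C and B2 knockdowns. Of 11 further mesenchymal genes tested, TNC (tenascin-C, a matrix protein) fell by 1.05 upon Lamin B2 Kd (adjusted p = 0.0192), where 3.92% of all genes fell. Upon Lamin A/C Kd 0 of them passed, where 8.94% of all genes did. Of the further mesenchymal regulators 0 passed, among 5 tested for the A/C knockdown and 6 for the B2 knockdown. Of all genes, 8.94% and 4.38% passed, in that order. RBM35B did not pass without control replicate 3 (adjusted p = 0.0508), TNC without any 1 of the controls (0.0658 to 0.103), and GRHL3 without any 1 array other than Lamin B2 Kd replicate 3 (0.0721 to 0.167).

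TGF-beta is a known inducer of the transition, and 19 genes of its pathway were tested. Upon Lamin A/C Kd 3 rose and 1 fell, where 3.15% and 5.79% of all genes did. Upon Lamin B2 Kd 0 rose and 2 fell, where 0.461% and 3.92% of all genes did. Upon Lamin A/C Kd, the ligand TGFB3 rose by 0.75 (adjusted p = 0.0358), the corepressor SKI by 0.58 (adjusted p = 0.0293) and the pseudoreceptor BAMBI by 0.76 (adjusted p = 0.0175), and ID1, a target of BMP signaling, fell by 0.90 (adjusted p = 0.0065). Upon Lamin B2 Kd, BAMBI fell by 0.68 (adjusted p = 0.0454) and ID1 by 0.66 (adjusted p = 0.0365). The BAMBI signal was 7.85, 7.88 and 7.98 in controls, 8.70, 8.66 and 8.62 upon Lamin A/C Kd and 7.38, 7.42 and 6.87 upon Lamin B2 Kd. The 3 groups did not overlap for BAMBI. With the mean of the probes of a gene the SKI change upon Lamin A/C Kd was 0.12 (adjusted p = 0.771) and that of TGFB3 was 0.58 (adjusted p = 0.471). The lists were chosen with earlier results of these arrays known, and among these genes ID1 upon Lamin A/C Kd passed with any 1 array left out. Upon Lamin A/C Kd, BAMBI and SKI did not pass without any 1 of the controls or of the Lamin A/C Kd arrays (adjusted p from 0.0512 to 0.119), nor TGFB3, which also did not pass without Lamin B2 Kd replicate 1 (0.0503 to 0.128). In Lamin B2 Kd, BAMBI and ID1 did not pass without any 1 of those 6 arrays or replicate 1 of Lamin B2 Kd (0.0556 to 0.184).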

How the data were processed

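The authors hybridized RNA of 9 DLD1 samples to single-color arrays and deposited the Feature Extraction output, with a processed intensity per spot that is background-subtracted and detrended. Each spot is also marked as well above background, saturated or an outlier. They also deposited a table of log2 signals after a 50th percentile shift, centered per row, in which 20266 of 50238 rows are blank and 11504 join several probes. That table served as an alternative, with its Lamin B2 Kd columns matched by group only. The file headers name Feature Extraction 10.7.3.1, and the submitters' processing notes name 10.5.

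Of 52857 features, 51538 were not controls. The log2 intensity minus the array median was averaged per probe over its spots, leaving out 55 to 108 outlier spots per array, and no spot was saturated. A probe counted as well above background where at least 0.5 of its spots were so marked. Between 65.6 and 74.1% of spots were above background, and the number of arrays limits the precision. Testing used limma 3.58.1 (R 4.3.3, data.table, version 1.17.8), lmFit and eBayes over all 9 arrays, with Benjamini-Hochberg adjustment over 33131, 33535 and 33134 probes in Lamin A/C Kd, Lamin B2 Kd and their difference. The steps were tested on simulated data. For bounds, a dim probe was set to the lowest signal above background on its array where its own was lower.

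Members past either threshold, CDH1, VIM and members with a probe past the adjusted p and another not past it were named with all values, and others by range. Of the wider lists, up to 5 genes per knockdown past the adjusted p were named. After the tests, 2 genes that had passed were taken out of these lists for a reason unrelated to their values and are not reported here, so no counts are given for the lists that held them. Members and lists were chosen with earlier results of these data known. Alternatives were a 75th percentile shift, quantile normalization, normexp with an offset of 50, the deposited table, no detection filter, detection on all 9 arrays, the slide or the replicate number as a block, the 2 groups alone, array weights, the mean of or any probe per gene, and leaving out each array. The files name no current genome build, so no positions are given.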

Additional observations from a re-analysis of the deposited data

Results flagged for a closer look

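Some of the genes named differed between the 2 knockdowns by limma's adjusted p. Those outside the member list were named because they had passed the test in either knockdown, so their number is not set against the share of all genes. Values are log2 signals of Lamin A/C Kd minus Lamin B2 Kd. Among the members, CLDN3 differed by 1.07, DSC2 by 0.84, F11R by 0.82, PKP2 by -0.80 and FN1 by -1.69. Of the other junction genes, CTNNAL1 differed by -0.69. Among the genes of the TGF-beta pathway, BAMBI differed by 1.44, TGFB3 by 1.04 and SKI by 0.54. The TGFB3 difference passed in 20 of 21 alternatives and the SKI difference in 13. With the mean of a gene's probes they were 0.71 and 0.34. The SKI difference did not pass without replicate 2 or 3 of Lamin A/C Kd or replicate 2 of Lamin B2 Kd (adjusted p from 0.0587 to 0.089). TNC, a matrix gene, differed by 0.72. The TNC difference did not pass without replicate 1 or 2 of Lamin A/C Kd (0.0668 to 0.0863). Of the epithelial regulators, GRHL3 differed by -0.46 and RBM35B by -0.83. The GRHL3 difference passed in 9 of 21 alternatives. It did not pass without any 1 array other than Lamin B2 Kd replicate 3 (adjusted p from 0.0751 to 0.148). The fitted differences of CGNL1 (2.31) and of PDGFRB (1.93), a growth factor receptor taken as a fibroblast marker, are descriptions only and no calls. Both genes passed the filter through their Lamin A/C Kd arrays alone, and of the Lamin B2 Kd arrays 0 were above background for CGNL1 and 2 for PDGFRB. For CGNL1 only the lower bound given above can therefore be read as a size.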

How the results depend on the processing

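Upon Lamin A/C Kd 3 members passed the adjusted p. The count was 5 with a 75th percentile shift or normexp, 7 with quantile normalization (4 higher, 3 lower), 9 with the slide as a block, with only the 2 groups compared or with array weights, and 1 with the mean of a gene's probes. The share of all genes past the adjusted p moved too, from 8.94% to 15.2% (75th percentile shift), 16.2% (normexp), 14.2% (quantile), 20.9% (slide), 20.2% (2 groups), 25.9% (weights) and 7.39% (mean of probes). Leaving out 1 array gave 2 to 9, the highest without Lamin B2 Kd replicate 3, which enters that comparison only through the shared spread. The share of all genes was then 2.72% to 20.9%, also highest without that array. By the 2-fold criterion (2 members) the count was 1 with normexp or the deposited table and 0 with the mean of probes, and 1 to 2 with an array left out (1 without control replicate 3, where FN1 changed by -0.98).

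Upon Lamin B2 Kd 0 members passed the adjusted p. The count was 2 with a 75th percentile shift, with detection on all 9 arrays, with the slide as a block or with array weights, 1 with quantile normalization and 4 with normexp, where 10.4% of all genes passed against 4.38%. In the other settings of that sentence the share of all genes was 4.04% (array weights) to 5.92% (detection on all 9 arrays). The count was 0 to 2 with an array left out: 1 if Lamin B2 Kd replicate 1 was left out, and 2 for replicate 2 or 3. The share of all genes was 3.24%, 6.48% and 4.7% without Lamin B2 Kd replicates 1, 2 and 3. Without any 1 of the other arrays it was 0.162% to 2.07%. By the 2-fold criterion (2 members) the count was 1 with quantile normalization or normexp, 0 with a 75th percentile shift, the slide as a block or array weights, and 0 to 2 with an array left out (0 without Lamin B2 Kd replicate 3, 1 without control replicate 1 or 3). For 5 members that differed between the knockdowns, the count was 4 to 7 under every alternative. The share of all genes was 6.91% with no detection filter and 22.3% with a 75th percentile shift, against 15.7%.

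PKP2 passed upon Lamin A/C Kd in 21 of 21 alternatives, FN1 in 20 and CTNND1 in 10. The differences of FN1, PKP2, F11R and CLDN3 passed in 21 and that of DSC2 in 12. Of the results for single members, 1719 kept their side of the threshold, 64 passed it only in the alternative and 21 lost it. Of those past the threshold in the main or the alternative setting, 0 changed sign. Results past it in neither did change sign in places, and these are counted as kept. Members above 0 upon Lamin B2 Kd went from 9 to 16 without its replicate 3. The cause of these shifts was not tested. With the replicate block the counts were 2 and 0 by the adjusted p, 2 and 2 by the 2-fold criterion and 5 for the difference. Of all genes, 4.64% and 0.832% then passed the adjusted p, and 10.8% in the difference. Deviations of same-numbered arrays correlated at -0.0856 to 0.148, so the numbers were not taken to pair the samples. Of the other genes named, PKP4, PPL, SKI, TGFB3 and BAMBI upon Lamin A/C Kd and PPL, GRHL3, TNC, BAMBI and ID1 upon Lamin B2 Kd did not pass with no detection filter (adjusted p from 0.0515 to 0.114) or in the deposited table (0.0566 to 0.14). For CDH2, ZEB1, DSG3, DSC3 and GJA1, not above background on any array, no change could be measured.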

Other observations

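Among the marker genes of other cell types, the PDGFRB signal was -2.02, -1.56 and -1.04 in controls, -0.29, 0.01 and 0.22 upon Lamin A/C Kd and -1.66, -1.83 and -2.36 upon Lamin B2 Kd. PDGFRB was above background on 2 control arrays, 3 Lamin A/C Kd arrays and 2 Lamin B2 Kd arrays, so it passed the filter through its Lamin A/C Kd arrays only, and no test or fold is given. The summed level of the fibroblast markers upon Lamin A/C Kd was 14.4, 15.0 and 16.1, within the range of the controls (13.0 to 16.1). Of the leukocyte and endothelial markers, 0 passed in either knockdown against control. Of 10 colon epithelium markers tested upon Lamin A/C Kd, 5 lay above 0 and 5 below, and 0 passed. Of all genes, 8.94% passed there. Of 11 tested upon Lamin B2 Kd, 7 lay above 0 and 4 below, with a median change of 0.14. Of all genes in that comparison 33.3% lay above 0, with a median of -0.14. The marker median was not computed without Lamin B2 Kd replicate 3. Upon Lamin B2 Kd 0 of these markers rose and 1 fell, where 0.461% and 3.92% of all genes did. The marker that fell was VIL1 (villin, an actin bundler of the brush border), by 1.06 (adjusted p = 0.034). Its signal was 3.07, 3.12 and 3.50 in controls and 2.22, 2.49 and 1.80 upon Lamin B2 Kd. VIL1 did not pass without any 1 of the controls, replicate 1 or 3 of Lamin A/C Kd or replicate 1 of Lamin B2 Kd (adjusted p from 0.0531 to 0.151), nor with the mean of its probes (0.0734).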
